A study of Mus musculus with 8 samples.

Results

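Skeletal muscle of the diaphragm was compared between a β-cat cKO embryo and control embryos at E18.5. The muscle of the β-cat cKO section was chosen by its own expression: spots were kept if they held at least 1000 UMIs (distinct captured probe molecules), and were called muscle if their mean log-normalized level of 9 sarcomere and triad genes (*Acta1*, *Actn2*, *Des*, *Myl1*, *Mylpf*, *Neb*, *Ryr1*, *Tnnt3* and *Ttn*) lay above the Otsu threshold of the section, the value that best splits its scores into a low and a high class. This gave 1577 muscle spots among the 2157 kept spots of the cKO section (73.1%), out of 12703 kept spots and 9873 muscle spots in the 8 sections of the series. In the controls 3092 of 3460 and 2199 of 2525 kept spots were muscle (89.4% and 87.1%), 5291 together. The threshold of the cKO lay at a score of 3.2, between a spot at 3.19569 just inside and a spot at 3.19143 just outside it, and those of the controls lay at 3.79 and 3.58. A spot is 55 µm wide and can hold fibers, connective tissue, vessels and nerve together, so these are regions rich in muscle and not pure muscle cells.

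The series holds Visium sections of mouse diaphragm, read with probes for 19465 genes on fixed tissue, from 4 embryos at E14.5 (3 controls and 1 lacking the calcium channel CaV1.1) and 4 at E18.5 (2 controls, 1 β-cat cKO and 1 CaV1.1 KO). The β-cat cKO carried 2 floxed alleles of the β-catenin gene and HSA-Cre, a recombinase made under the human skeletal actin promoter, so that the gene is targeted in muscle fibers and kept in fibroblasts, vessels and nerve. The controls carried at least 1 functional allele of both CaV1.1 and β-catenin; the crosses also segregated a CaV1.1 null allele, and the allele state of single embryos, their sex and their litter are not given in the sources used here. Each section is 1 embryo, and the cKO has no replicate. Its tests use the spread among the 3 controls of E14.5 and between the 2 controls of E18.5, so part of it comes from the earlier stage. They assume that a cKO varies as the controls do. The muscle spots held 75800909 and 62934506 UMIs in controls 1 and 2 and 48272179 in the cKO, with medians of 23525, 27917 and 29861 UMIs per spot.

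β-catenin has a double role. At the membrane it ties cadherins to the actin cytoskeleton, and in the nucleus it is the coactivator of TCF/LEF transcription factors, through which canonical Wnt signals switch on feedback genes such as *Axin2*, *Notum* and *Sp5*. The fetal diaphragm is a mixed muscle that is still maturing before birth: embryonic isoforms of myosin and of the acetylcholine receptor are replaced by slow and fast adult isoforms, and mitochondria and membrane channels accumulate for breathing.

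Promoter windows of 4 genes that the results turn on are printed as RefSeq gives them on GRCm38.p6, 5′ to 3′ on the strand of the gene, from 250 bases before to 50 bases after an annotated start site. The window of *Sp5*, a Wnt target, is chr2:70474673-70474972 on the plus strand, with the TCF/LEF core CTTTGAT in capitals.
Sp5: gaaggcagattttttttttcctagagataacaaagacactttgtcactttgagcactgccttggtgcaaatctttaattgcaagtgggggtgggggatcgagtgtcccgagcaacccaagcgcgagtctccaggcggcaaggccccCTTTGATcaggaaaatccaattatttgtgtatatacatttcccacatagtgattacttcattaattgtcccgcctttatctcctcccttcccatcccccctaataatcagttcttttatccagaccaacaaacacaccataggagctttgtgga
The next windows belong to the slow myosin light chain *Myl3* (chr9:110763428-110763727, plus strand), the slow myosin heavy chain *Myh7* (chr14:54994500-54994799, minus strand, the more downstream of its annotated start sites) and the embryonic receptor subunit *Chrng* (chr1:87205561-87205860, plus strand), with E-boxes CANNTG, the sequence bound by myogenic factors, in capitals.
Myl3: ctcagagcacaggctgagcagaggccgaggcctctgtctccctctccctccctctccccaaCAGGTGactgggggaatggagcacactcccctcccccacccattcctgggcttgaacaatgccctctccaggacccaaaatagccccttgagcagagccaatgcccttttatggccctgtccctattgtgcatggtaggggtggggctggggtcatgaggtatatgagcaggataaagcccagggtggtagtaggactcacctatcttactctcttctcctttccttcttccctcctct
Myh7: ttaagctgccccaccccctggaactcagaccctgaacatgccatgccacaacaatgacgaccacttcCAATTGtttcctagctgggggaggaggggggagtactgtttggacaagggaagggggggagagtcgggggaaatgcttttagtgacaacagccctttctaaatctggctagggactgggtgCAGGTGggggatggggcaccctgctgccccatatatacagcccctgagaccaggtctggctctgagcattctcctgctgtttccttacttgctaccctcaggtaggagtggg
Chrng: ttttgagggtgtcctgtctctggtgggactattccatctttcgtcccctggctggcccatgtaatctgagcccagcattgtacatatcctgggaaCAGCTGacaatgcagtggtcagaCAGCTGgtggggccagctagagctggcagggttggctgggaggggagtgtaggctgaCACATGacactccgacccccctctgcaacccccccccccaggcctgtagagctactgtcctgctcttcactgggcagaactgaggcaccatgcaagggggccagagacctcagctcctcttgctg
Searched on both strands, CTTTGAT was held by 1006 of 27025 RefSeq promoter windows of this length (3.72%), and by 1 of 10 Wnt target genes, *Sp5*, at −104 from the start site. CANNTG was held by 72.1% of all windows and by 10 of 10 slow contractile genes. These include *Tpm3*, whose expression was not tested here, and leave out *Atp2a2*, whose expression was. These matches describe the letters of the windows and are not evidence of binding, and a missing match says nothing about a factor. Some genes have several windows, so a count of genes and a share of windows are not in the same unit.

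UMIs of all muscle spots were summed per section and compared across all genes with edgeR's quasi-likelihood test, in 1 fit of the 8 sections. Levels are given as CPM, a gene's UMIs per fixed library size, scaled by TMM, which sets the typical gene equal between sections. They compare 1 gene between sections, not genes with each other. Of 14823 genes tested besides the 9 that chose the spots, 471 were higher (3.18%) and 834 lower (5.63%) in the cKO at an adjusted p under 0.05 (Benjamini-Hochberg), so that 36.1% of called genes were higher. This split follows the scaling. With library totals the median gene moved by 0.22 on the log2 scale and 2258 genes were higher and 568 lower (79.9% higher), and with the 9 muscle genes set equal (the 9-gene scaling) it moved by 0.52 and 3651 were higher and 234 lower (94.0% higher). The 9 genes themselves, which are described and not tested, had a median log2 difference of -0.56 under TMM, with values from -0.65 (*Neb*) to -0.08 (*Ttn*), so a muscle gene near -0.56 moved like the genes that define muscle here. A value in parentheses after a gene is its log2 difference, cKO minus control, unless another is named. A single section lies outside 2 controls for many genes: 39.5% of the tested genes were above both controls and 39% below both.

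**Figure D1:**
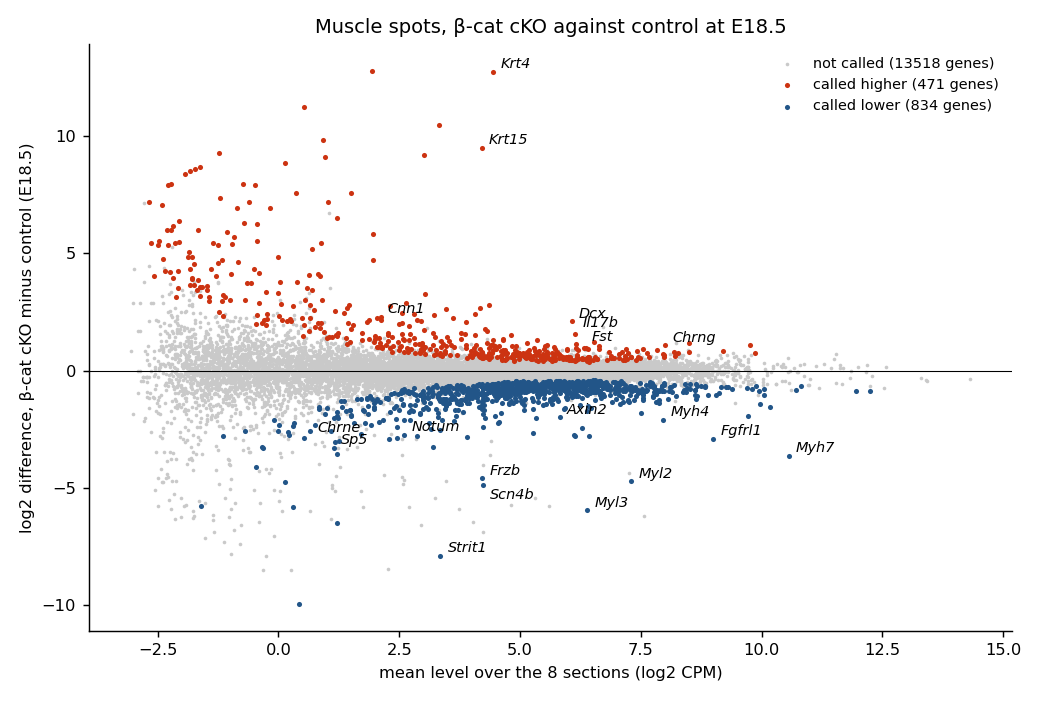
Log2 difference in muscle spots between the β-cat cKO section and the 2 control sections at E18.5 (y axis) against the mean level over the 8 sections (x axis, log2 CPM). Each point is 1 of 14823 genes, with the 471 called higher in red and the 834 called lower in blue, and the slow myosin genes *Myl3*, *Myl2* and *Myh7* lie far below 0 at moderate to high levels.

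The targeted gene was read first. *Ctnnb1*, which encodes β-catenin, was at 105 and 97.4 CPM in the controls and 96.2 CPM in the cKO. The cKO lay just below both controls, by less than the controls differed from each other, and the difference did not pass the test (log2 difference -0.07 ± 0.12 SE, edgeR adjusted p = 0.77). The position of its probe is not in the files used here, so a probe outside the floxed exon would read the recombined transcript as well, and the non-muscle cells of each spot keep the gene. The level of *Ctnnb1* therefore checks neither the label nor the recombination.

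The label of the tissue was checked on 8 muscle genes that did not choose the spots. *Ckm*, *Atp2a1*, *Cacna1s*, *Myh8*, *Tnnc2*, *Mybpc1*, *Trdn* and *Myot* summed to 75102 CPM (of library totals) in the cKO muscle spots and to 10482 CPM in its other spots, against 89514 and 87360.2 CPM in control muscle. *Myot*, a Z-disc protein, was called lower in the cKO (-0.80, edgeR adjusted p = 0.0495), though not on leaving out a control (-0.75 without control 1 and -0.84 without control 2), and the other 7 were not called. All 8 lay below both controls, with a median log2 difference of -0.43 (0.09 with the 9 muscle genes set equal). DESeq2 called 3 of them lower, and the fit of E18.5 sections alone called 6. By these genes, too, the chosen spots of the cKO were rich in muscle, though at lower levels than in control muscle.

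The sections differed in other tissue, and its part in the results below was not tested. Summed levels in this paragraph are CPM of library totals, not scaled by TMM, while log2 differences are under TMM unless another scaling is named. Hepatocyte markers summed to 648, 16.9 and 33.9 CPM in muscle spots of control 1, control 2 and the cKO, and cartilage markers to 1072, 101 and 67 CPM, so control 1 stood apart. Of 8 cartilage genes *Acan* (-1.77) and *Col11a2* (-1.61) were called lower, and of 8 hepatocyte genes none was, nor at an unadjusted p under 0.05 or by DESeq2, while in the 9-gene scaling 6 and 8 were called lower. Erythroid markers summed to 706, 698 and 323 CPM, endothelial markers to 704, 656 and 487 CPM, and macrophage markers to 165, 196 and 300.4 CPM, with *Cd68* (0.89) and *C1qb* (0.78) called higher of 6 macrophage genes and *Tie1* (-1.03) and *Cldn5* (-0.93) lower of 8 endothelial genes. Both endothelial calls were lost on leaving out either control (*Tie1* -1.08 without control 1 and -0.98 without control 2, *Cldn5* -0.97 without control 1 and -0.88 without control 2), with library totals, with the 9-gene scaling and in interior spots. All 8 endothelial genes lay below both controls (median -0.74). DESeq2 called 7 of them lower, edgeR called 7 without spots of other tissue, and 5 were called with the E18.5 sections alone. Smooth muscle markers, of which *Cnn1* (2.29) was called higher, though not without spots of other tissue, summed to 705, 673 and 858 CPM, fibroblast markers to 11242, 14913 and 16793 CPM and Schwann cell markers to 59.9, 65.1 and 78.6 CPM. Gene by gene under TMM, 3 of 6 fibroblast genes lay above both controls and 0 below (median log2 difference 0.17). Over all genes tested, 39.5% lay above both controls and 39% below both. For Schwann cells 4 of 6 genes lay below both controls and 1 above (median -0.48), while their sum was highest in the cKO. Genes of stratified epithelium, a list of 6 added after their values were seen (*Krt4*, *Krt13*, *Krt15*, *Krt5*, *Psca* and *Sprr3*), held 17568 UMIs in the muscle spots of the cKO against 9 and 18 in the controls, and 179712 UMIs in the spots outside muscle of the cKO against 3 and 4. For this reason a comparison without muscle spots that held 10 or more UMIs of the epithelial, hepatocyte or cartilage lists was added after the data had been seen. It kept 1248 cKO spots and 1765 and 2097 control spots, and is quoted for some of the calls it changed, not for all.

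Slow myosin genes fell furthest among genes called at a mean level of at least 5 log2 CPM. This ranking took only genes outside both controls and left out the marker lists of other tissue. The hepatocyte markers, none of them called, had a median of -5.76. *Myl3*, a light chain shared by slow fibers and heart ventricle, was at 212 and 297 CPM in the controls and 4.08 CPM in the cKO. *Myl2*, the regulatory light chain of the same fibers, was at 490.5 and 627 CPM in the controls and 21.2 CPM in the cKO. *Myh7*, the slow myosin heavy chain, was at 3060.2 and 4094 CPM in the controls and 291 CPM in the cKO. The falls were 62.2-fold, 26.4-fold and 12.3-fold in the fit. The log2 difference was -5.96 ± 0.37 SE for *Myl3* (edgeR adjusted p = 0.000491), -4.72 ± 0.25 SE for *Myl2* (edgeR adjusted p = 0.000254) and -3.62 ± 0.26 SE for *Myh7* (edgeR adjusted p = 0.000956). All 3 were called under each of the 12 alternative settings tried. *Myh7b*, a slow-type heavy chain that hosts a microRNA, also fell, from 39.9 and 52.4 to 6.97 CPM (log2 difference -2.72 ± 0.22 SE, edgeR adjusted p = 0.00165).

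Not all slow genes passed the test. Of 10 slow contractile genes tested, 5 were lower and none higher, with a median of -0.81 (-0.28, with 4 lower and 1 higher, in the 9-gene scaling). The fifth was *Myoz2*, a slow-fiber calcineurin-binding Z-disc protein (-1.03, edgeR adjusted p = 0.0187), which was no longer called with the 9-gene scaling. Slow troponins lay on either side of the controls: *Tnni1* was at 1625 and 1753 CPM in the controls and 2062 CPM in the cKO, above both controls, *Tnnc1* at 796 and 928 CPM in the controls and 621 CPM in the cKO, and *Tnnt1* at 3556 and 3911 CPM in the controls and 2631 CPM in the cKO. None of the 3 was called (edgeR adjusted p = 0.458, 0.185 and 0.224). The slow calcium pump *Atp2a2* (-0.55) and the calcium store protein *Casq2* (-0.59) were not called either. In the same scaling the CaV1.1 KO muscle at E18.5 held 27.5 CPM of *Myl3*, 20.9 of *Myl2* and 842 of *Myh7*, and the 3 E14.5 controls held 34.1 to 50.6, 27.4 to 35.3 and 926 to 1123 CPM, so the cKO level of *Myl3* and *Myh7* lay below each of these.

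**Figure D2:**
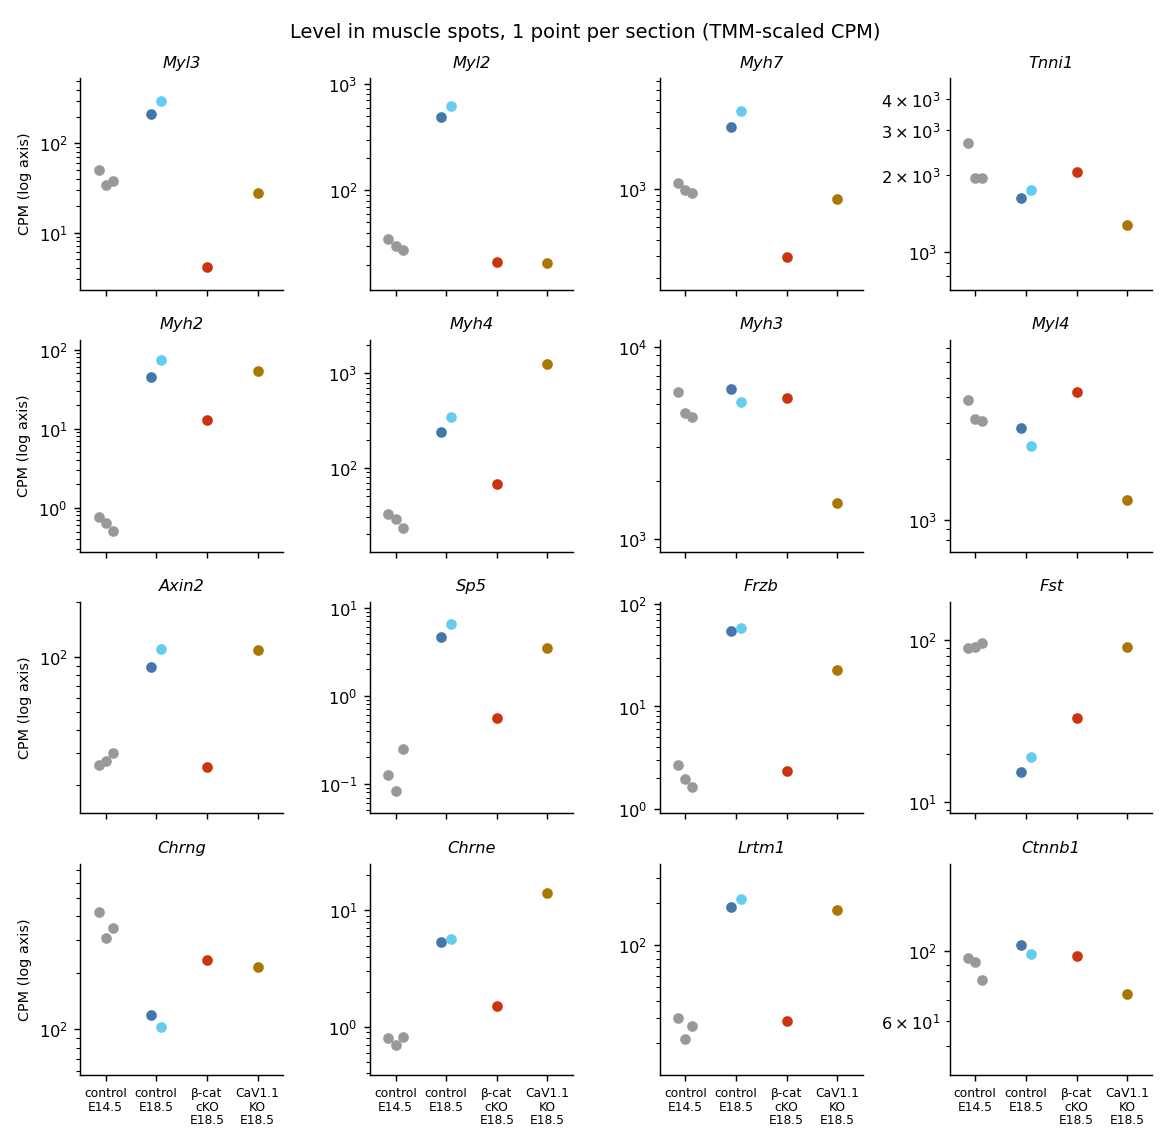
Level in muscle spots of 16 named genes, 1 point per section, as TMM-scaled CPM on log axes, for the controls at E14.5 (3 sections) and E18.5 (2 sections) and for both mutants at E18.5. *Myl3* in the cKO (4.08 CPM) lies below the other sections shown, while *Ctnnb1* (96.2 CPM) lies close to the E18.5 controls.

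What remained of *Myh7* was uneven in space. The median muscle spot held 1.46 *Myh7* UMIs per 10000 in the cKO, against 18.8 and 26.9 in the controls. The highest cKO spot reached 28.7 and thus passed the median of both controls. The top 10% of cKO spots held 41% of all *Myh7* UMIs of the muscle, against 24.1% and 22.2% in the controls. The same share for *Tnni1* was 19.2% against 20.6% and 18.6%, inside the range of the controls. Spots of 1 section are not replicates, and such a share also depends on the count behind it, so these shares are descriptions.

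**Figure D3:**
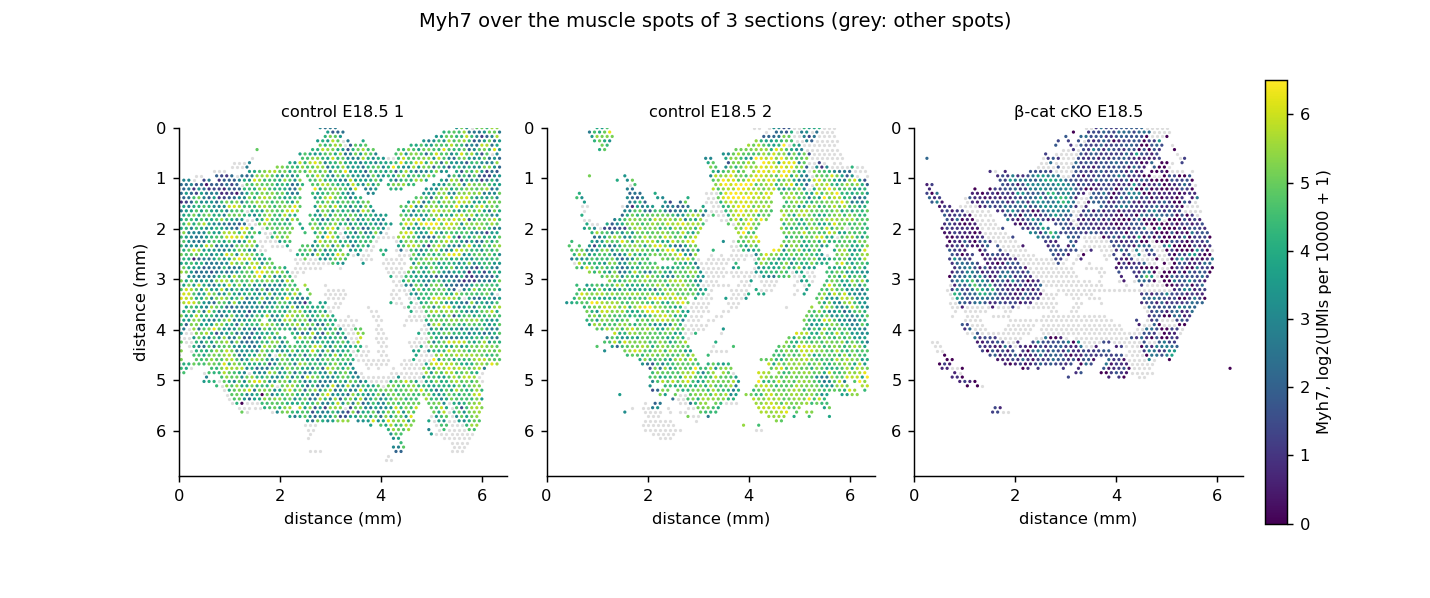
Position of muscle spots, colored by *Myh7* as log2(UMIs per 10000 + 1) on 1 scale for the 2 controls and the β-cat cKO at E18.5, with the other kept spots in grey and axes in mm. The controls are at high values over most of the muscle (medians 18.8 and 26.9 per 10000), and the cKO is low (median 1.46) with a few brighter patches.

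**Figure D4:**
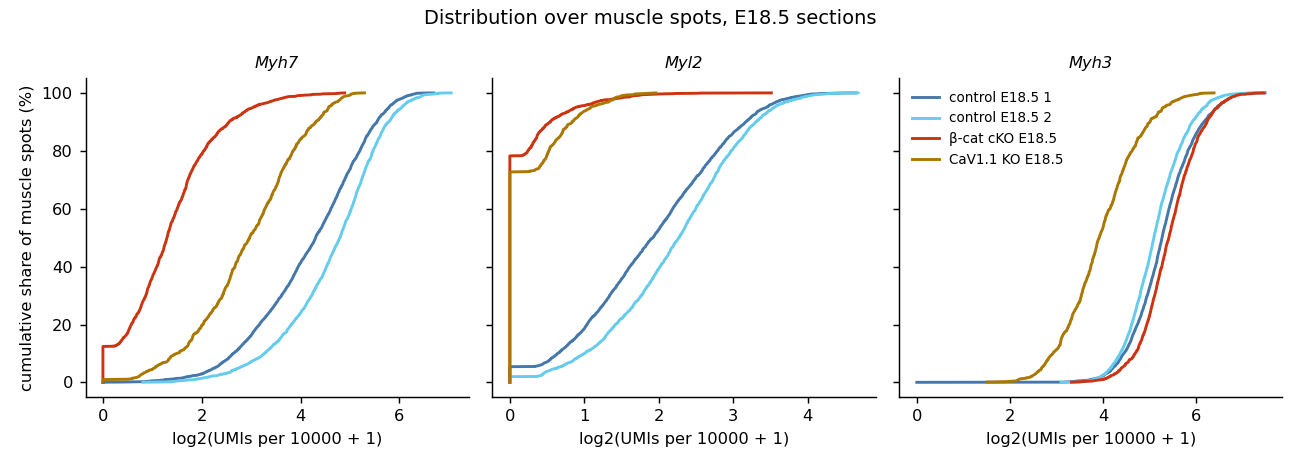
Cumulative share of muscle spots (y axis, %) up to a given log2(UMIs per 10000 + 1) (x axis) for *Myh7*, *Myl2* and *Myh3*, 1 line per E18.5 section. The cKO lines of *Myh7* and *Myl2* lie far left of the control lines, while its *Myh3* line runs beside them.

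Of the 3 adult fast myosin heavy chains 2 were lower. *Myh2*, the type IIa heavy chain, was at 44.4 and 73 CPM in the controls and 12.8 CPM in the cKO (log2 difference -2.19 ± 0.29 SE, edgeR adjusted p = 0.00719). *Myh4*, the type IIb heavy chain, was at 238 and 344 CPM in the controls and 68.4 CPM in the cKO (log2 difference -2.09 ± 0.27 SE, edgeR adjusted p = 0.00677). Both lay below both controls and held in all 12 alternatives. *Myh1*, the type IIx chain, was at 1689 and 2513 CPM in the controls and 1028 CPM in the cKO and was not called (log2 difference -1.03 ± 0.28 SE, edgeR adjusted p = 0.0608). Of 13 fast contractile genes 5 were lower and none higher, with a median of -0.74 (-0.21, with 3 lower and 1 higher, in the 9-gene scaling). The other 3 were the fast troponin *Tnni2*, from 3234 and 3609 to 1182 CPM (log2 difference -1.53 ± 0.21 SE, edgeR adjusted p = 0.00738), the Z-disc protein *Myoz3* (-1.27, edgeR adjusted p = 0.0128) and the tropomyosin *Tpm1* (-0.85, edgeR adjusted p = 0.0439); the last was not called in 5 of the 12 alternatives, among them -0.82 without control 1 and -0.88 without control 2. Not every fast gene lay below the controls. *Pvalb*, the calcium buffer of the fastest fibers, was at 281 and 662 CPM in the controls and 1076 CPM in the cKO, above both controls, which themselves differed by 1.24 on the log2 scale, and it was not called (edgeR adjusted p = 0.132). The rest, *Tnnc2*, *Actn3*, *Mybpc2*, *Atp2a1*, *Casq1* and *Myoz1*, were not called and had log2 differences from -0.74 to -0.05.

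None of the embryonic isoforms passed the test with TMM. *Myh3*, the embryonic myosin heavy chain, was at 6007 and 5168 CPM in the controls and 5407 CPM in the cKO, between the controls. *Myh8*, the perinatal chain, was at 47317 and 45669.5 CPM in the controls and 36253 CPM in the cKO, below both, and neither was called (edgeR adjusted p = 0.922 and 0.392). Under the 9-gene scaling *Myh3* turned to a called rise (log2 difference 0.48). *Myl4*, the embryonic light chain, was at 2819 and 2306 CPM in the controls and 4245 CPM in the cKO, above both controls, and did not pass the test (log2 difference 0.73 ± 0.20 SE, edgeR adjusted p = 0.0684). Of 11 developmental myosins and assembly genes, a list that holds genes the study picked on these sections, none was called by edgeR, with 2 higher and 1 lower at an unadjusted p under 0.05, 2 higher and 0 lower by DESeq2, while 2 were called higher with library totals and 6 with the 9-gene scaling. With TMM, the E18.5 sections alone gave 1 higher and 2 lower. Muscle spots with the higher muscle scores gave 1 higher, and those without other tissue 1 higher and 1 lower. The median was 0.02 (0.54 in the 9-gene scaling). *Csrp3*, *Flnc* and *Nrap*, which build new myofibrils, had log2 differences of 0.02, -0.06 and 0.29, and *Tnnt2*, *Enah*, *Xirp1*, *Mybph* and *Ncam1* lay from -0.61 to 0.53.

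Among the Wnt targets *Axin2*, *Notum* and *Sp5* fell, and most of the others were not called. *Axin2*, the negative feedback scaffold that is the most used readout of canonical Wnt, was at 88.4 and 112 CPM in the controls and 25.2 CPM in the cKO (log2 difference -1.99 ± 0.18 SE, edgeR adjusted p = 0.00194). *Notum*, a secreted enzyme that inactivates Wnt proteins, was at 10 and 12.8 CPM in the controls and 1.71 CPM in the cKO (log2 difference -2.73 ± 0.27 SE, edgeR adjusted p = 0.00254). *Sp5*, a transcription factor that restrains Wnt targets, was at 4.69 and 6.45 CPM in the controls and 0.563 CPM in the cKO, the last from 23 UMIs (log2 difference -3.30 ± 0.49 SE, edgeR adjusted p = 0.00999). The cKO lay below both controls for all 3, as for 39% of all genes, and each was called in the 12 alternatives. Of 17 Wnt targets tested 6 were lower and 1 higher, with a median of -0.26 (0.27 in the 9-gene scaling, where these 3 were lower and 4 genes higher), beside 3.18% higher and 5.63% lower over all genes.

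The other called targets had smaller log2 differences. *Lef1*, a partner of β-catenin and itself a target, was at 4.42 and 4.65 CPM in the controls and 1.93 CPM in the cKO (-1.23, edgeR adjusted p = 0.0257), *Ccnd1*, a G1 cyclin, fell by 0.89 on the log2 scale (edgeR adjusted p = 0.0186), and *Znrf3*, the ligase that removes Wnt receptors, fell by 0.74 (edgeR adjusted p = 0.0129). *Lef1* was not called without control 2 (-1.19), nor without spots of other tissue. *Fst*, the secreted inhibitor of myostatin and activin, went the other way, at 15.4 and 19 CPM in the controls and 33.3 CPM in the cKO (log2 difference 0.95 ± 0.13 SE, edgeR adjusted p = 0.00833). The other 10 were not called: *Myc* was at 33.5 and 34.5 CPM in the controls and 43.6 CPM in the cKO and *Nkd1* at 25.9 and 37.3 CPM in the controls and 38.7 CPM in the cKO, while *Lgr5*, *Rnf43*, *Tcf7* and *Wif1* were under 3 CPM in all 3 sections. The highest log2 difference of the whole list, 2.29, was among these low-level genes. *Nkd2*, *Apcdd1*, *Bmp4* and *Porcn* had log2 differences from -0.26 to -0.07. *Dkk1* had no UMI in these sections and was not tested.

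Ligands, receptors and antagonists of the pathway were measured as a second list of 34 genes, of which 8 were lower and 1 higher, with a median of -0.03 (0.50 in the 9-gene scaling). *Frzb*, a secreted Wnt antagonist, was at 54 and 58.3 CPM in the controls and 2.32 CPM in the cKO (log2 difference -4.59 ± 0.26 SE, edgeR adjusted p = 0.000323), a 24.1-fold fall that held in all 12 alternatives. *Wnt11* fell from 15.6 and 19.5 to 1.86 CPM (log2 difference -3.24 ± 0.30 SE, edgeR adjusted p = 0.002). *Wnt16* was at 4.47 and 9.49 CPM in the controls and 0.587 CPM in the cKO (log2 difference -3.56 ± 0.86 SE, edgeR adjusted p = 0.046), and was not called without control 2 (-2.92). Among receptors *Fzd10* was lower, from 35.7 and 39.7 to 9.93 CPM (-1.92, edgeR adjusted p = 0.00251), and *Fzd3* higher, from 10.5 and 7.84 to 16.7 CPM (0.86, edgeR adjusted p = 0.0257). *Kremen1*, a co-receptor of Dkk proteins (-1.26), *Rspo3*, a secreted enhancer of Wnt signals (-1.28), *Wnt9a* (-0.86) and *Dkk2* (-0.64) were the other called falls. Without control 2 the falls numbered 5, with *Wnt16*, *Wnt9a* (-0.70) and *Dkk2* (-0.57) not called, and *Dkk2* was not called without control 1 (-0.71) either. Of 19 signal transduction genes 2 were lower, *Dvl1* (-0.82, edgeR adjusted p = 0.00726) and the co-receptor *Lrp5* (-0.73, edgeR adjusted p = 0.0209), and 1 was higher, the corepressor *Tle3* (0.52, edgeR adjusted p = 0.0434). *Dvl1* and *Lrp5* were not called with the 9-gene scaling, and *Tle3* was not called on leaving out a control (0.47 without control 1 and 0.58 without control 2). Over all genes 5.63% were called lower and 3.18% higher, so 2 and 1 calls among 19 genes say little about the list.

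In cadherin adhesion, the other role of β-catenin, 13 genes had a median of 0.00 (0.52 in the 9-gene scaling). Of these 1 was called higher and 1 lower, beside 3.18% and 5.63% over all genes, which says little about the list. *Cdh11*, a cadherin of mesenchymal cells, was higher, at 84.8 and 86.8 CPM in the controls and 129 CPM in the cKO (0.59, edgeR adjusted p = 0.0208), and *Nectin3*, an adhesion partner of cadherins, was lower, at 53.1 and 47.2 CPM in the controls and 33.6 CPM in the cKO (-0.58, edgeR adjusted p = 0.0413). *Cdh11* was not called on leaving out a control (0.57 without control 1 and 0.61 without control 2), nor *Nectin3* without control 1 (-0.49).

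The acetylcholine receptor held subunits on either side. *Chrng*, the fetal γ subunit, was at 119 and 103 CPM in the controls and 234 CPM in the cKO (log2 difference 1.08 ± 0.19 SE, edgeR adjusted p = 0.0184), above both controls, 2.11-fold in the fit. *Chrne*, the adult ε subunit that takes its place, was at 5.34 and 5.65 CPM in the controls and 1.52 CPM in the cKO, the last from 62 UMIs (log2 difference -1.85 ± 0.26 SE, edgeR adjusted p = 0.00866), below both. The call on *Chrng* was lost without control 2 (0.98), and that on *Chrne* when only the muscle spots with the higher muscle scores were used (-1.02). *Chrna1* was at 116 and 114 CPM in the controls and 162 CPM in the cKO, *Chrnd* at 94.7 and 92.4 CPM in the controls and 119 CPM in the cKO and *Chrnb1* at 157 and 171 CPM in the controls and 146 CPM in the cKO, and none of the 3 was called (edgeR adjusted p = 0.119, 0.273 and 0.524). The median of the 5 subunits was 0.34 (0.87 in the 9-gene scaling). With library totals 3 of the 5 were called higher and 1 lower, as with the 9-gene scaling. By DESeq2 2 were called higher and 1 lower. The 3 E14.5 controls held 306 to 423 CPM of *Chrng* and 0.695 to 0.817 CPM of *Chrne*, and the CaV1.1 KO at E18.5 held 215 and 14 CPM.

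Of 27 further endplate genes, some of which the study picked from these sections, 9 were lower and none higher, with a median of -0.41 (0.12 in the 9-gene scaling, in which 3 were lower and 3 higher). *Lrtm1*, a leucine-rich repeat membrane protein, was at 187 and 211 CPM in the controls and 28.9 CPM in the cKO (log2 difference -2.78 ± 0.21 SE, edgeR adjusted p = 0.00123). *Ddit4l*, an inhibitor of mTOR, was at 139 and 168 CPM in the controls and 22 CPM in the cKO (log2 difference -2.80 ± 0.22 SE, edgeR adjusted p = 0.00133). These 2 and the metallothionein *Mt3* (-1.49, edgeR adjusted p = 0.0158) held in all 12 alternatives. *Ache*, which breaks down acetylcholine, fell from 60.8 and 72 to 37.7 CPM (-0.82, edgeR adjusted p = 0.0281), its anchor *Colq* from 8.96 and 10.6 to 4.57 CPM (-1.1, edgeR adjusted p = 0.0251), and the collagen *Col25a1*, which motor axons need to enter muscle, from 14 and 16.2 to 7.19 CPM (-1.07, edgeR adjusted p = 0.00866). The other called falls were *Ank3* (-0.87), *Metrn* (-0.86) and *Apobec2* (-1.05). *Ache* (-0.69), *Colq* (-0.97) and *Apobec2* (-0.91) were not called without control 2, and the 6 genes besides *Lrtm1*, *Ddit4l* and *Mt3* were not called in the 9-gene scaling. Summed over all muscle, these values cannot tell fewer cells or nuclei of a type from less RNA in each.

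Regulators of fiber type were lower in part. Of 19 fiber type regulators 6 were lower and none higher, with a median of -0.45 (0.07, with 4 lower and 1 higher, in the 9-gene scaling). *Fgfrl1*, an FGF receptor without a kinase domain, was at 995 and 1036 CPM in the controls and 134 CPM in the cKO (log2 difference -2.92 ± 0.21 SE, edgeR adjusted p = 0.000956), and is known to be needed in mice for the slow fibers of the diaphragm. *Esrrb*, an orphan nuclear receptor of oxidative muscle, was at 12.2 and 15.1 CPM in the controls and 2.32 CPM in the cKO (log2 difference -2.55 ± 0.22 SE, edgeR adjusted p = 0.00179). *Fhl1*, a LIM-domain protein of the sarcomere, was at 2462 and 2600.4 CPM in the controls and 665 CPM in the cKO (log2 difference -1.93 ± 0.20 SE, edgeR adjusted p = 0.00347). *Fhl3* (-1.34), *Ppargc1a*, the coactivator of mitochondrial genes (-1.21), and its partner *Esrra* (-0.86) were called lower as well, the last 2 not in the 9-gene scaling.

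Membrane channels and pumps were lower in part. Of 17 excitability genes 8 were lower and none higher, with a median of -0.82 (-0.29, with 3 lower and 2 higher, in the 9-gene scaling). *Kcna7*, a potassium channel, was at 19.5 and 27 CPM in the controls and 7.46 CPM in the cKO (log2 difference -1.64 ± 0.25 SE, edgeR adjusted p = 0.011), below both controls, and was not called in the 9-gene scaling (-1.11, edgeR adjusted p = 0.0552). The inward rectifiers *Kcnj2* (-1.41) and *Kcnj12* (-0.93), the sodium pump subunit *Atp1b1* (-1.28) and the chloride channel *Clcn1* (-0.97) were called lower as well. *Clcn1* and *Kcnj12* were not called on leaving out a control (*Clcn1* -0.98 without control 1 and -0.96 without control 2, *Kcnj12* -0.87 without control 1 and -0.99 without control 2). Of 22 genes of excitation-contraction coupling 1 was lower, the calcium sensor *Stim1* (-0.71, edgeR adjusted p = 0.0112), which was not called in the 9-gene scaling, and 1 was higher, with a median of -0.32 (0.21, with 4 higher and none lower, in the 9-gene scaling). DESeq2 called 6 of the list lower and 1 higher, and without spots of other tissue edgeR called 4 lower and 0 higher. *Pln*, which inhibits the slow calcium pump, was the gene called higher, on 22 UMIs against 2 and 0 in the controls, and was not called without control 2 or without spots of other tissue, where its UMIs are too few for a fold.

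Of the gene lists measured, that of fatty acids had the largest share of called genes. Of 24 genes of fatty acid uptake and oxidation 20 were lower and none higher, all 24 lay below both controls (39% of all genes did), and the median was -0.88 (-0.35, with 4 lower, in the 9-gene scaling). *Acsl1*, which activates fatty acids, was at 56.3 and 67.8 CPM in the controls and 17.9 CPM in the cKO (log2 difference -1.80 ± 0.15 SE, edgeR adjusted p = 0.00174). *Slc27a1*, a fatty acid transporter, was at 89.6 and 93.6 CPM in the controls and 32.7 CPM in the cKO (log2 difference -1.48 ± 0.12 SE, edgeR adjusted p = 0.00174). *Lpl*, the lipase that frees fatty acids from lipoproteins, was at 526 and 527 CPM in the controls and 229 CPM in the cKO, and *Acadvl*, the first enzyme of long-chain oxidation, at 355 and 371 CPM in the controls and 152 CPM in the cKO (-1.20, edgeR adjusted p = 0.0112, and -1.25, edgeR adjusted p = 0.00525). These 4 are the ones still lower in the 9-gene scaling. *Pdk4*, which spares glucose when fat is burned, fell from 63.5 and 71.5 to 25.2 CPM (-1.42, edgeR adjusted p = 0.00714).

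Respiratory chain genes lay below both controls under TMM. Of 33 complex I genes 17 were lower, of 13 genes of complexes II and III 7, of 11 genes of complex IV 3 and of 12 ATP synthase genes 5. None was higher, and all 69 lay below both controls. Over all genes tested, 5.63% were called lower and 39% lay below both controls. The medians were -0.60, -0.67, -0.50 and -0.62. The 9 genes that chose the spots had a median of -0.56, and the 8 muscle genes that did not choose them -0.43. With the 9 genes set equal the list medians were -0.08, -0.14, 0.02 and -0.10. In that scaling 3, 0, 1 and 0 were called lower. With TMM, edgeR called 22, 9, 3 and 8 lower without spots of other tissue, and DESeq2 called 28, 10, 5 and 8 lower over all muscle spots. Without control 2 the falls called dropped to 9, 2, 1 and 2, and without control 1 to 12, 2, 2 and 3, while the medians of complex I and of complexes II and III without control 2 were -0.65 and -0.66. The largest falls were *Ndufa6* of complex I, from 339.5 and 289 to 118 CPM (log2 difference -1.41 ± 0.16 SE, edgeR adjusted p = 0.00421), *Cox7a1*, the muscle isoform of a complex IV subunit (-1.19, edgeR adjusted p = 0.0167), *Atp5g1* of the ATP synthase (-1.20, edgeR adjusted p = 0.00295) and *Sdhc* of complex II (-1.08, edgeR adjusted p = 0.0106), besides *Ndufb2* at under 7 CPM (-1.70).

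Genes of carbon metabolism were lower in part. Of 24 genes of the citric acid cycle and the malate-aspartate shuttle 10 were lower (median -0.65, or -0.12 in the 9-gene scaling), led by the aspartate carrier *Slc25a13* (-1.81, edgeR adjusted p = 0.00866) and the transaminase *Got1* (-1.32, edgeR adjusted p = 0.00429). Of 22 genes of glycogen and glycolysis 8 were lower (median -0.60, or -0.08), led by the insulin-sensitive glucose transporter *Slc2a4* (-1.09, edgeR adjusted p = 0.0206) and *Phkg1*, the catalytic subunit of phosphorylase kinase (-1.07, edgeR adjusted p = 0.0141), with 5 called without control 2. In the 9-gene scaling 2 genes of the first list were called lower and none of the second. DESeq2 called 21 and 13 lower, and without spots of other tissue edgeR called 17 and 10 lower. Of 7 phosphagen genes the mitochondrial creatine kinase *Ckmt2* was lower, from 2855 and 2909 to 1068 CPM (log2 difference -1.43 ± 0.31 SE, edgeR adjusted p = 0.0327), a call lost on leaving out a control (-1.45 without control 1 and -1.42 without control 2). The cytosolic kinase *Ckm* was at 27138 and 25589.5 CPM in the controls and 19906 CPM in the cKO and was not called, and *Ckmt1*, *Ckb*, *Slc6a8*, *Gatm* and *Ampd1* were not called either, with log2 differences from -0.25 to 1.97. The median of the list was -0.17 (0.36 in the 9-gene scaling).

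**Figure D5:**
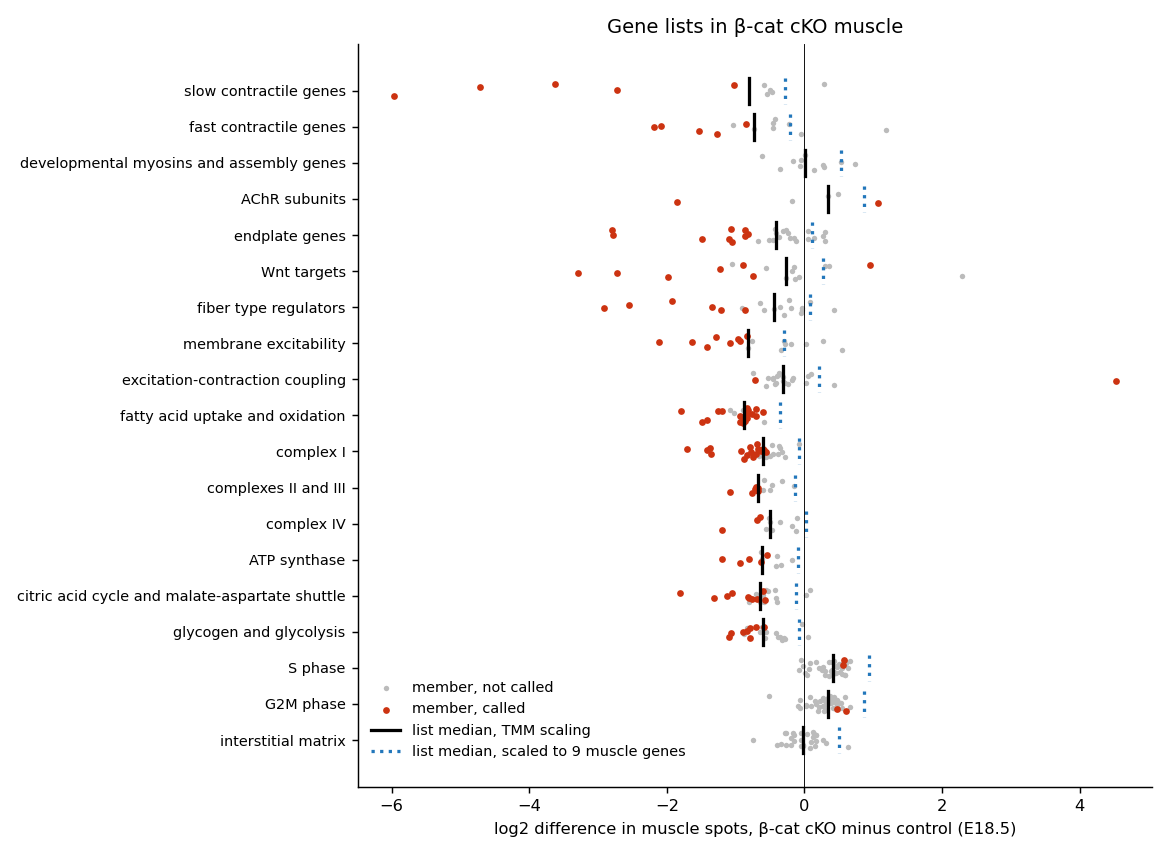
Log2 difference between the β-cat cKO and the 2 controls (x axis) of the members of 19 gene lists, 1 point per gene, red where called by edgeR, with the list median under TMM (black) and with the 9 muscle genes set equal (dotted blue). The metabolic lists (fatty acids, respiratory chain, citric acid cycle, glycolysis) have medians from -0.88 to -0.50 under TMM and from -0.35 to 0.02 on the dotted lines, while *Myl3*, *Myl2* and *Myh7* stay far left of either.

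Cell cycle genes lay mostly above both controls. Of 40 S phase genes 35 lay above both controls and of 47 G2M genes 40 did, where 39.5% of all genes did, with medians of 0.42 and 0.34 (0.94 and 0.87 in the 9-gene scaling). With TMM 2 genes of either list passed the test, the replication genes *Mcm5* (0.58, edgeR adjusted p = 0.0411) and *Fen1* (0.56, edgeR adjusted p = 0.0258), and the mitotic genes *Cdca2* (0.61, edgeR adjusted p = 0.0279) and *Birc5* (0.47, edgeR adjusted p = 0.0466). The counts depended on the scaling and on the controls. With library totals 25 S phase and 29 G2M genes were called higher, and with the 9-gene scaling 31 and 39. Without control 1, 20 S phase and 15 G2M genes were called higher, and without control 2 none was in either list (7 and 6 by DESeq2 and 23 and 21 at an unadjusted p under 0.05 with both controls), with medians of 0.28 and 0.21. Without spots of other tissue 13 and 9 were called higher.

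Among myogenic and fusion factors 4 of 20 were lower and 1 higher, with a median of -0.05 (0.48 in the 9-gene scaling). *Klf5*, a factor of early muscle differentiation, was higher, at 44.5 and 53.9 CPM in the controls and 77.4 CPM in the cKO (0.65, edgeR adjusted p = 0.0474). *Tead1* (-0.63, edgeR adjusted p = 0.02), *Six4* (-1.17, edgeR adjusted p = 0.0406), *Pax7* of muscle stem cells (-0.49, edgeR adjusted p = 0.0384) and *Mef2a* (-0.49, edgeR adjusted p = 0.0455) were lower, none of them in the 9-gene scaling, where *Pax7* and *Mef2a* stood at 0.03 and 0.03. *Klf5* (0.52) and *Mef2a* (-0.50) were not called without control 1, and *Six4* (-1.01), *Pax7* (-0.45) and *Mef2a* (-0.48) not without control 2.

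The largest rises ranked in the same way, at a mean level of at least 5 log2 CPM, were smaller than the largest falls. *Dcx*, a microtubule protein of migrating neurons that is also made by muscle precursors, was at 12.1 and 8.65 CPM in the controls and 44.8 CPM in the cKO (log2 difference 2.11 ± 0.23 SE, edgeR adjusted p = 0.00394). *Il17b*, a secreted cytokine, was at 9.92 and 6.49 CPM in the controls and 24.1 CPM in the cKO (log2 difference 1.55 ± 0.24 SE, edgeR adjusted p = 0.0107). *Igtp*, an interferon-induced GTPase, was at 42.7 and 37.8 CPM in the controls and 100.1 CPM in the cKO (log2 difference 1.32 ± 0.21 SE, edgeR adjusted p = 0.0117), and was the 1 gene called of 14 interferon genes, which had a median of -0.07 (0.45 in the 9-gene scaling). All 3 were called in the 12 alternatives. Lying above both controls was a condition of their choice and is not a result. *Dcx* and *Il17b* were at 93 to 127 and 119 to 156 CPM in the E14.5 controls, far above either E18.5 group, whereas *Igtp* was at 27.5 to 40.2 CPM there.

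The next rises were close to each other, from 1.05 to 1.21. They were *Lsp1*, an actin-binding protein of leukocytes and endothelium (1.21, edgeR adjusted p = 0.00207), *Crabp1*, which binds retinoic acid (1.19, edgeR adjusted p = 0.0116), *Igfbp2*, which binds insulin-like growth factors (1.18, edgeR adjusted p = 0.012), *Fbxo17*, an F-box protein (1.14, edgeR adjusted p = 0.00432), the tubulin *Tubb6* (1.11, edgeR adjusted p = 0.0253), the integrin *Itga4* (1.1, edgeR adjusted p = 0.0149), *Chrng*, the adhesion molecule *Alcam* (1.07, edgeR adjusted p = 0.014) and *Smyd2*, a methyltransferase of the sarcomere (1.05, edgeR adjusted p = 0.00656). Macrophage markers were also higher in the cKO, at the summed levels given above, and their part in the rise of *Lsp1* was not tested. *Tubb6* was not called without control 2 (0.91). *Alcam* was at 9.78 and 10.9 CPM in the controls and 21.6 CPM in the cKO, and at 84.7 CPM in the CaV1.1 KO.

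The other large falls at that level were *Mylk3*, a kinase that phosphorylates *Myl2*, from 97.4 and 105 to 15.9 CPM (log2 difference -2.66 ± 0.15 SE, edgeR adjusted p = 0.000333), *Tspan12*, a tetraspanin that boosts Norrin signals through the β-catenin pathway, from 157 and 151 to 28 CPM (log2 difference -2.46 ± 0.16 SE, edgeR adjusted p = 0.00075), and the carbonic anhydrase *Car14*, from 86.7 and 92.4 to 22.2 CPM (log2 difference -2.01 ± 0.26 SE, edgeR adjusted p = 0.00636). All 3 held in the 12 alternatives. With them the 12 largest falls included 4 myosin chains of slow fibers, 1 of fast fibers and the Wnt target *Axin2*.

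Large falls were also seen at lower levels, and the 4 given here were chosen after their values were seen. *Strit1*, a small peptide of slow fibers that activates the calcium pump, held 1547 and 1451 UMIs in the controls and 5 in the cKO (log2 difference -7.88 ± 0.30 SE, edgeR adjusted p = 0.000129). *Scn4b*, an accessory sodium channel subunit, held 2899 and 2632 UMIs and 77 in the cKO (log2 difference -4.86 ± 0.26 SE, edgeR adjusted p = 0.000258). *Smco1*, a membrane protein of muscle, held 402 and 314 UMIs and 3 in the cKO, and *Acsm5*, a mitochondrial acyl-CoA synthetase, held 171 and 209 UMIs and 0 in the cKO, where a count of 0 allows up to 3. All 4 were called in the 12 alternatives. The CaV1.1 KO held 10.4 CPM of *Strit1* and 31.3 CPM of *Scn4b*, between the cKO (0.122 and 1.88) and the controls (28.1 and 31.5, 52.7 and 57.2).

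Genes of denervation and atrophy moved both ways. Of 17 genes 6 were lower and 2 higher, with a median of -0.28 (0.24 in the 9-gene scaling). *Fbxo40*, a muscle ubiquitin ligase that targets Irs1, was at 56.8 and 66 CPM in the controls and 12.9 CPM in the cKO (log2 difference -2.25 ± 0.21 SE, edgeR adjusted p = 0.00215), and the atrophy ligase *Fbxo32* fell from 18.8 and 21.9 to 7.78 CPM (-1.39, edgeR adjusted p = 0.0106). *Ankrd1*, a stretch-responsive protein of the sarcomere and of muscle ends, was at 50.1 and 68.7 CPM in the controls and 117 CPM in the cKO (log2 difference 0.98 ± 0.19 SE, edgeR adjusted p = 0.023), and *Chrna9*, a receptor subunit not found at the endplate, at 68.7 and 73.2 CPM in the controls and 112 CPM in the cKO (log2 difference 0.66 ± 0.15 SE, edgeR adjusted p = 0.0348). *Dach2* was lower on 13 UMIs (-2.36, edgeR adjusted p = 0.0278), and *Gadd45a* (-0.45), *Hdac9* (-0.74) and *Trp53inp2* (-1.26) were the other called falls. On leaving out a control, *Chrna9* (0.62 without control 1 and 0.71 without control 2), *Gadd45a* (-0.40 without control 1 and -0.49 without control 2) and *Hdac9* (-0.70 without control 1 and -0.77 without control 2) were not called, nor *Dach2* without control 1 (-2.11).

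Few matrix, scaffold and stress genes were called by edgeR with TMM over all muscle spots of the 8 sections. Of 29 interstitial matrix genes none was called by edgeR, with 1 higher and 3 lower at an unadjusted p under 0.05 and 1 higher by DESeq2, and of 15 stress and immediate early genes none was called, with 2 higher and 2 lower at an unadjusted p under 0.05 and 1 lower by DESeq2. Their medians were -0.03 and -0.04 (0.50 and 0.49 in the 9-gene scaling). With library totals 2 genes of either list were called higher, and with the 9-gene scaling 12 matrix and 2 stress genes. In the higher-scoring muscle spots 1 matrix gene was called lower and 2 stress genes higher. Of 24 genes of the dystrophin complex and basal lamina the synaptic laminin *Lamb2* was lower (-0.78, edgeR adjusted p = 0.0253), of 19 myostatin and imprinted growth genes the receptor *Acvr2b* (-0.75, edgeR adjusted p = 0.0367), and of 10 myotendinous junction genes *Tigd4* was lower (-0.95, edgeR adjusted p = 0.0454) and *Ankrd1* higher. DESeq2 called 6, 2 and 2 genes of these 3 lists lower and 0, 0 and 2 higher. Without spots of other tissue edgeR called 4, 2 and 0 lower, so *Tigd4* lost its call there. The calls on *Acvr2b* (-0.60) and *Tigd4* (-0.81) were lost without control 2, and in the 9-gene scaling no gene of these 3 lists was called lower and 2, 8 and 5 were called higher.

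Spots outside muscle gave an internal comparison. With the section as a block, the cKO difference was tested as (muscle minus other spots in the cKO) minus the same in the controls. Of 15473 genes 20 were higher (0.129%) and 99 lower (0.64%), so that 16.8% of called genes were higher, against 31.0% with library totals and 0.659% (8 higher and 1206 lower) with the 9-gene scaling. *Axin2* held 64.1 and 81.8 CPM of library totals in control muscle and 21.4 in cKO muscle, and 56.6, 54.3 and 52.2 CPM in the other spots. The levels in the other spots lay close together, and the log2 difference of differences was -1.77 ± 0.26 SE (edgeR adjusted p = 0.0424). *Znrf3* (-1.46, edgeR adjusted p = 0.0249) and *Kremen1* (-1.31, edgeR adjusted p = 0.0471) were called as well. All 3 were called on leaving out either control, and none of them with the E18.5 sections alone, where the values were -1.70, -1.39 and -1.24 (edgeR adjusted p = 0.168, 0.166 and 0.209). Spots outside muscle differed in tissue, since those of the cKO held the epithelial genes above, and what this adds to the contrast was not tested; with the E18.5 sections alone it called 0 genes higher and 3 lower (880 and 846 at an unadjusted p under 0.05; 105 and 186 by DESeq2 in the 8 sections). The fall of *Frzb* was not separated by this test (-0.03 ± 0.78 SE, edgeR adjusted p = 1): it held 14.8 and 12.6 CPM in the other spots of the controls and 0.624 in those of the cKO. *Myh7* was not called either (edgeR adjusted p = 0.628), at 826 and 602 CPM in the other spots of the controls and 44.2 in those of the cKO.

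The muscle of the cKO was last set against that of the CaV1.1 KO at E18.5, the other mutant section of that stage. Both sides of this contrast are single sections. Of 14823 genes 656 were higher (4.43%) and 425 lower (2.87%) in the cKO, so that 60.7% of called genes were higher, against 15.7% with library totals and 2.59% with the 9-gene scaling. *Myh4* was at 68.4 CPM in the cKO and 1249 CPM in the KO, on opposite sides of the controls (238 and 344), with a log2 difference of -4.19 ± 0.32 SE (edgeR adjusted p = 0.00117). *Myh7b* (-3.15), *Myl3* (-2.75), *Lrtm1* (-2.62) and *Ddit4l* (-2.52) were the next falls. *Axin2* was also lower in the cKO (-2.12, edgeR adjusted p = 0.00184), and the test did not separate *Myl2* (0.02 ± 0.23 SE, edgeR adjusted p = 0.97).

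The largest rises against the KO were in genes at low levels in the KO. *Ankrd2*, a stretch-responsive protein of slow muscle, was at 66.3 CPM in the cKO and 1.28 in the KO, beside 129.8 and 175 in the controls (log2 difference 5.69 ± 0.37 SE, edgeR adjusted p = 0.000809). *Csrp3*, a Z-disc LIM protein, was at 1570.1 and 77.3 CPM, beside 1594 and 1514 (log2 difference 4.34 ± 0.35 SE, edgeR adjusted p = 0.00127). *Tppp3*, a tubulin-binding protein (3.21), *Ankrd1* (3.14) and *Dusp8*, a phosphatase of stress kinases (3.01), were next. *Chrne* was at 1.52 CPM in the cKO and 14 in the KO (log2 difference -3.21 ± 0.30 SE, edgeR adjusted p = 0.00184), while *Chrng* was not separated by the test (0.12, edgeR adjusted p = 0.78).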

How the data were processed

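Spatial RNA profiles of 8 mouse diaphragm sections were used. The counts are UMIs per gene and spot that the authors deposited after Space Ranger (mm10, named with Seurat in the submitters' processing notes) had mapped probe reads and kept spots under tissue, with no normalization and no pooling. Where a symbol stood on 2 rows (11 symbols), the row with the most UMIs was used. Muscle spots were chosen by score and Otsu threshold, and their UMIs summed per section. The sums were tested with edgeR 4.0.16 (TMM, filterByExpr, quasi-likelihood) in 1 fit of 5 groups of 8 sections with 3 residual degrees of freedom and a common dispersion of 0.02167. The labels give no litter or batch, so p-values measure only the spread between these sections. Contrasts with the controls and with the CaV1.1 KO share the cKO section. Capture positions are fixed, and 1778 and 1483 of the 2166 barcodes of the cKO occur in control 1 and 2, so spots were never joined by barcode.

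The members, the 44 gene lists and the tests were chosen with earlier results of these data known. Genes named are the targeted gene and the 12 largest rises and falls called at a mean of 5 log2 CPM or more. All members of 6 lists, the 2 largest called in each direction of the others, and the 5 largest of each other comparison were added. The 12 rises and falls were taken only from genes outside both controls, so that position is no result for them. The marker lists of other tissue were left out of these and of the 5 largest. Other called genes are given by value. Some genes are not reported here. The 12 alternatives were DESeq2 1.42.0, library totals, totals of the 9 muscle genes, no low-count filter, E18.5 sections only, either control left out, a shared threshold, the higher-scoring muscle spots, interior spots, a minimum of 5000 UMIs, and, added after seeing the data, muscle spots without other tissue. Tests were checked on simulated counts drawn with a lower dispersion than the fitted one and the same spread in the cKO. That check shows that known changes are recovered, and cannot measure the error rate at the spread of these sections. Promoters come from RefSeq (27025 windows).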

Additional observations from a re-analysis of the deposited data

Results flagged for a closer look

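The difference between the β-cat cKO and the controls was not the same in muscle spots and in other spots for 20 genes in the higher and 99 in the lower direction, by the test of the difference of differences with the section as a block. Levels are CPM of library totals, in the order control 1, control 2 and cKO.

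The values below are for genes called at a mean level of at least 5 log2 CPM, without the marker lists of other tissue. The largest higher values were 1.53 for *Cma1*, a mast cell protease, 1.52 for *Gja5*, a connexin of arteries, 1.5 for *C1qtnf3*, 1.49 for *Cilp*, a matrix protein, and 1.29 for *Dusp8*. *Cma1* held 12, 18.9 and 28 CPM in muscle spots and 66.4, 120.1 and 53.9 CPM in other spots, and *Cilp* held 71, 71.5 and 76.2 CPM in muscle spots and 186, 178 and 65.1 CPM in other spots. For *Cilp* the muscle spots lay close together and the other spots of the cKO lay below both controls. *Dusp8* was not called without control 1 (1.28) or without control 2 (1.26), nor *C1qtnf3* without control 1 (1.45).

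The largest lower values were -4.54 for *Gsto1*, -4.07 for *Hopx*, -3.96 for *Krt15*, -3.96 for *Gsta4* and -3.73 for *Upk3bl*. *Gsto1*, a glutathione transferase, held 53.2, 60.7 and 131 CPM in muscle spots and 57.4, 69.3 and 3155 CPM in other spots. *Krt15*, a keratin of basal epithelium, held 0.0396, 0.254 and 119.8 CPM in muscle spots and 0.284, 0.435 and 4263 CPM in other spots. In both the other spots of the cKO stood far above the controls, and *Krt15* was not called without control 2 (-2.50). None of the 10 was called with the E18.5 sections alone except *Gsto1* and *Hopx*, and the 5 higher ones were not called with the 9-gene scaling. The epithelial spots of the cKO were not tested as the source of these values.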

How the results depend on the processing

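Scaling moved the counts most. Against the controls, library totals gave 2258 genes higher, and the 9-gene scaling 3651 higher and 234 lower; E18.5 sections alone gave 312 higher; leaving out a control gave 294 (without control 2) to 510 (without control 1) higher and 532 to 736 lower. Against the CaV1.1 KO, DESeq2 gave 1054 higher, library totals 405 higher and 2180 lower, and the 9-gene scaling 220 higher and 8260 lower. For the difference of differences, DESeq2 gave 105 higher and 186 lower, library totals 44 higher, the 9-gene scaling 8 higher and 1206 lower, no filter 66 higher and 200 lower, E18.5 sections alone 0 higher and 3 lower, and leaving out a control 28 (without control 1) to 165 (without control 2) higher and 117 to 147 lower. The cause of these moves was not tested. *Myh3* turned from -0.05 to 0.48 with the 9-gene scaling, and *Tigd4* from -0.95 to 0.16 in the higher-scoring muscle spots, where it was not called. Of 86 named genes called, 22 lost the call without control 2, 12 without control 1, 28 with the 9-gene scaling, 18 in interior spots, 16 with E18.5 sections alone and 5 without other tissue; 141 higher and 103 lower genes were called under all 12 alternatives. The shared threshold left under 10 muscle spots in E14.5 sections, which kept their own. With 1 cKO section, embryo and genotype cannot be told apart. No paired analysis was possible because the labels give no litter or other link between the cKO embryo and the control embryos.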

Other observations

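Keratins of stratified epithelium were concentrated in part of the cKO section. Of its 1577 muscle spots 308 (19.5%) held at least 10 UMIs of the 6 epithelial genes, and these spots held 79.1% of the epithelial UMIs of the muscle. *Krt4* had 6656 UMIs in muscle spots of the cKO against 2 and 0 in the controls, and *Krt15* had 5783 against 3 and 16. Without these spots, and those with hepatocyte or cartilage UMIs, 552 genes were higher and 1063 lower, among them 357 of the 471 and 793 of the 834 called with all muscle spots. These genes were chosen after their values were seen, and what tissue the spots cover was not tested.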
